A study of Mus musculus with 16 samples.

Results

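The genes described here are 34 genes of glycolysis and of the response to low oxygen, taken by name. They include the transporters that carry glucose and lactate, the enzymes of the glycolytic chain, and the kinases and phosphatases that set its flux. Gpd1, an enzyme of a side branch, is listed with these flux regulators. The hypoxia-inducible factor Hif1a with its regulators and targets completes the set. All 34 were searched for on the array by the gene name of each probe, older names included. Of these, 33 had at least 1 probe, of 27670 gene names on the array. The missing gene was Gapdh, for which no probe carried the name. All 33 passed the filter on dim probes and were tested, among 17082 genes. They are represented by 60 probes, of which 57 were kept, and 18 genes have more than 1 probe.

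The study looked for the genes that respond when TIM-3, a surface receptor of immune cells, is engaged by an agonist antibody on mouse mast cells, which are tissue cells that release mediators when IgE on their surface meets its antigen. Immature mast cells were grown from bone marrow with IL-3 and SCF, and the labels give a purity above 90% for cells with the IgE receptor and Kit. All cells compared here are such cultures, and the labels name no strain, age or genotype. Each of 16 arrays held RNA of cells given the goat anti-TIM-3 antibody (15 ug/ml) in Cy5 and RNA of cells given control goat IgG (15 ug/ml) in Cy3. The 4 groups of 4 arrays are cells activated for 16 h, resting cells at 16 h, cells activated for 2 h and resting cells at 2 h. Activation means 1 h with anti-DNP IgE (5 ug/ml) followed by DNP-HSA as antigen at 100 ng/ml, added with the antibody or the IgG. Resting cells were given neither IgE nor antigen. An effect of antigen below therefore means that of IgE and antigen together, whose parts cannot be told apart here. Whether the 4 replicates of a group were grown apart or came from different mice is not stated in the labels, so each p-value reflects only how far these samples scatter, and that scatter may be technical. The dyes were never swapped, so the antibody effect in any single group cannot be told apart from a dye bias of the probe, whereas a bias equal on all arrays cancels when groups are compared.

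Glycolysis splits glucose into pyruvate in a preparatory phase, which spends ATP to make phosphorylated hexoses and cleave them, and a pay-off phase, which returns ATP and ends in pyruvate or, after reduction, in lactate. Its rate is set at hexokinase, at phosphofructokinase and its activator fructose 2,6-bisphosphate, and at the entry of pyruvate into mitochondria. Hif1a protein is marked for destruction by the prolyl hydroxylases of the Egln family when oxygen is present, and once stable it drives many genes of glycolysis along with Vegfa, Bnip3, P4ha1, Ddit4 and Adm. Myeloid cells, mast cells among them, use glycolysis heavily when activated.

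The core of the element that hypoxia-inducible factors bind is ACGTG, which reads as CACGT from the opposite strand, and these letters were searched for on both strands of RefSeq promoter windows of GRCm38.p6, from 250 bases before to 50 bases after each start. Of the 34 genes, 32 had a window, and Gpd1 and Slc2a3 had none. The letters occurred in a window of 22 of those 32 genes (68.8%), against 5886 of 27025 genes (21.8%). Among genes with 1 window the shares were 14 of 22 members (63.6%) and 19.4% of all such genes, a comparison that was not matched for base composition. Members that antigen raised at 2 h, as described below, carried the letters in 5 of 6 cases, members it lowered in 8 of 12 and members with no call in 8 of 13. The match describes these letters in these windows only. The 250 bases before the start are printed for some of the genes with a called antigen response at 2 h that carry a match there, with the matched letters in capitals. They are both windows of Pfkfb3 (chr2:11502091-11502340 and chr2:11553930-11554179, minus strand), Slc16a1 (chr3:104638414-104638663, plus strand), P4ha1 (chr10:59323046-59323295, plus strand), Ddit4 (chr10:59951771-59952020, minus strand), Bnip3 (chr7:138909507-138909756, minus strand) and Hk2 (chr6:82774455-82774704, minus strand). All are written 5′ to 3′ on the strand of the gene.
Pfkfb3: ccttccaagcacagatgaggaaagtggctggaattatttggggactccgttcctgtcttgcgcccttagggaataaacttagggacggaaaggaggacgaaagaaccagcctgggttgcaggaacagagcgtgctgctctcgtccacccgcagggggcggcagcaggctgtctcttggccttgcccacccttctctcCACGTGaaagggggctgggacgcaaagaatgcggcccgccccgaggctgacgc
Pfkfb3: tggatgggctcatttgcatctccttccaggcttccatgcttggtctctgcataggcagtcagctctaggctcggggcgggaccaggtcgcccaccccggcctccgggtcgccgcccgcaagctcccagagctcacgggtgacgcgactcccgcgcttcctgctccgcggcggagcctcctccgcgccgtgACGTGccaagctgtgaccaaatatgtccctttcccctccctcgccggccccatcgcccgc
Slc16a1: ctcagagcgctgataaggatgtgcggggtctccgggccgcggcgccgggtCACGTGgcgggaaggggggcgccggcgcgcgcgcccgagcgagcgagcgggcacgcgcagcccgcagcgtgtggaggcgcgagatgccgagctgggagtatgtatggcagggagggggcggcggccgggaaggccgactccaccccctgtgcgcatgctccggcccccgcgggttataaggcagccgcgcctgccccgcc
P4ha1: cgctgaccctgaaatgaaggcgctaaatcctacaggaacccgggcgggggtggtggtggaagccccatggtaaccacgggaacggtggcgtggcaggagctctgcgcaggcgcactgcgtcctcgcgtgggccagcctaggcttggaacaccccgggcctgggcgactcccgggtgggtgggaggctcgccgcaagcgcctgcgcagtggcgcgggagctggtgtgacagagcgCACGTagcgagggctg
Ddit4: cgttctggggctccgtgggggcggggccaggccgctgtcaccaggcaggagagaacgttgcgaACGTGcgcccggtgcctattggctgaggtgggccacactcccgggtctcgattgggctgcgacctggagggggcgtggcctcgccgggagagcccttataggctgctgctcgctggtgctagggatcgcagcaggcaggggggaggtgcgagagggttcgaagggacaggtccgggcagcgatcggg
Bnip3: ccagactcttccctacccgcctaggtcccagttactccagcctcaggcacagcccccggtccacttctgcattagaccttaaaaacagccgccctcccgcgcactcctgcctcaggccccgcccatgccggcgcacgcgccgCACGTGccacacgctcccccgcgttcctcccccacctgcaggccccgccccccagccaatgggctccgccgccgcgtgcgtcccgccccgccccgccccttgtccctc
Hk2: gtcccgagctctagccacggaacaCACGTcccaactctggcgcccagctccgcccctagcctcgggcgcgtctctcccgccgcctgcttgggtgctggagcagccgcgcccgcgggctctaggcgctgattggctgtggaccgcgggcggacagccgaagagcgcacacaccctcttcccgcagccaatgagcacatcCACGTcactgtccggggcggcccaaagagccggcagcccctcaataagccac

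Over the whole series, 54.8 to 67.7% of spots were well above background in Cy5 and 53.7 to 62.1% in Cy3, no spot was saturated, and resting 2 h replicates 3 and 2 followed their group's mean ratio least (r = 0.34 and 0.40, against 0.57 to 0.91 for the other arrays). All 10 mast cell markers tested were above background in every group. With the antibody 7 were called higher (all genes 16.9%) and 1 lower (13.2%) in cells activated for 16 h. In resting cells at 16 h 6 were higher (11.7%) and 1 lower (9.95%). Their summed intensity there was 408060 to 605462 with anti-TIM-3 and 286840 to 369150 with IgG. At 2 h 3 were called higher in activated (all genes 17.1%) and 4 in resting cells (7.07%), and none lower (16.3% and 6.92%). The 8 macrophage and dendritic cell markers were all tested. With the antibody 1 was called higher (all genes 16.9%) and 7 lower (13.2%) in cells activated for 16 h. Their summed intensity there was 16076 to 39053 with anti-TIM-3 and 21228 to 61848 with IgG. In resting cells at 16 h the sums were 36987 to 88121 with anti-TIM-3 and 36246 to 70136 with IgG. Of the erythroid and lymphocyte markers 3 of 6 and 6 of 7 were tested, with Epor at 8.42 to 10.65 and Nkg7 at 6.56 to 9.02 in log2 Cy3 intensity over the arrays, and their Cy3 sums were 1736 to 1828 and 976 to 1032 in cells activated for 2 h, against 737 to 827 and 649 to 690 in resting cells at 2 h. Fibroblast markers (3 of 5 tested) summed to 11317 to 13436 in resting cells at 16 h and 16640 to 23995 in resting cells at 2 h in Cy3, where Acta2 had 13.43 to 14.54 over the arrays and Col1a2 6.53 to 6.97. Of 3 neutrophil markers tested (of 8), 2 were called lower (all genes 26.3%) at 16 h than at 2 h in activated IgG-treated cells. Of 3 basophil markers (of 4) 1 was called higher (33.8%). The difference in ratio between activated and resting cells at 16 h was called for 1 macrophage and dendritic cell marker higher (all genes 4.71%) and 5 lower (3.87%). That between 16 h and 2 h in activated cells was called for 1 higher (9.14%) and 6 lower (8.05%). The part of these cells in the results below was not tested. In such bulk samples fewer cells of a type and less RNA per cell cannot be told apart.

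IgE followed by antigen for 2 h raised Gpd1, Pfkfb3, Vegfa and Slc16a1 and lowered Ddit4 and most enzymes of the preparatory phase. In IgG-treated cells, set activated against resting through the Cy3 channel, 20 of the 33 genes were called at 2 h (60.6%, against 42.9% of all genes tested; limma, Benjamini-Hochberg adjusted p under 0.05), 7 higher and 13 lower, where the shares over all genes were 15.3% and 27.6%. The higher genes were the side-branch enzyme Gpd1, the flux regulator Pfkfb3, the lactate carrier Slc16a1, the pay-off enzyme Eno2 and 3 hypoxia targets (Vegfa, P4ha1 and Egln3). Of these, Egln3 passed the filter on dim probes only through the activated 2 h arrays. The lower genes held 6 of the 9 preparatory enzymes, none of which was higher, both glucose transporters, Pfkfb4, Pdk3, Ddit4, Egln1 and Bnip3. The median over the 33 genes was -0.07 on the log2 scale, beside -0.04 over all genes. Each of the 20 calls was kept whichever array was left out, and within both slides that held activated and resting 2 h arrays all 20 had the same direction. Without resting 2 h replicates 2 and 3 the counts were again 7 and 13. Signals processed by the scanner software gave 9 higher and 11 lower, where 42.9% of all genes were called. A stricter filter asked for both channels well above background in every group, which Egln3 and Gpd1 do not pass. With it 5 genes were higher and 13 lower among 31 tested, where 48.2% of all genes were called.

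Gpd1, which turns the glycolytic intermediate dihydroxyacetone phosphate into glycerol 3-phosphate, had the largest difference of the 33. Its Cy3 log2 intensities were 10.62, 10.25, 10.45 and 10.14 in activated cells at 2 h, against 7.05, 6.98, 7.30 and 7.12 in resting cells at 2 h. All activated arrays lay far above all resting arrays. The fold was 9.53 (log2 difference 3.25 ± 0.27 SE, adjusted p = 5.07e-08). Its dimmer second probe was not well above background in Cy3 on any resting 2 h array and gives no size.

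Pfkfb3 makes fructose 2,6-bisphosphate, the activator of phosphofructokinase. Its Cy3 log2 intensities were 13.54, 13.48, 13.62 and 13.47 in activated cells and 11.56, 11.76, 11.85 and 11.81 in resting cells at 2 h. The groups did not overlap, and antigen raised it 3.43-fold (1.78 ± 0.06 SE, adjusted p = 1.88e-12), with 0.74 on a dimmer probe. The other probe was well above background in Cy3 on 1 of the 4 resting 2 h arrays. Pfkfb4, an enzyme of the same reaction pair, fell by 0.51 ± 0.12 (adjusted p = 0.00207).

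Slc16a1, a carrier that moves lactate and pyruvate with protons, had Cy3 log2 intensities of 11.79, 11.50, 11.66 and 11.50 in activated cells and 10.54, 10.83, 10.88 and 10.83 in resting cells at 2 h. Every activated array was above every resting one, and the rise was 1.79-fold (adjusted p = 4.68e-07). Slc16a3, the carrier known for lactate export, showed no call (0.05 ± 0.07, adjusted p = 0.616). Both glucose transporters fell, Slc2a1 by 0.41 ± 0.08 (adjusted p = 0.000698) and Slc2a3 by 0.34 ± 0.05 (adjusted p = 7.4e-05).

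Vegfa, which encodes an endothelial growth factor, had Cy3 log2 intensities of 10.43, 10.68, 10.59 and 10.47 in activated cells, against 9.12, 9.30, 9.21 and 9.12 in resting cells at 2 h. The groups lay apart, with a rise of 2.55-fold (1.35 ± 0.08 SE, adjusted p = 2.35e-09), and its other probes gave 1.10 and 1.37. P4ha1, a subunit of the collagen prolyl hydroxylase, had 11.03, 11.08, 11.25 and 11.27 in activated cells, against 10.40, 10.40, 10.49 and 10.67 in resting cells. It rose 1.59-fold without overlap (adjusted p = 6.69e-05). The hydroxylase Egln3 was well above background on the activated 2 h arrays only, where its log2 Cy3 intensities were 6.51, 6.61, 6.61 and 6.72. It passed the filter on dim probes through those arrays alone, so its call is no independent support for a rise. Its rise is given as a bound of at least 1.34-fold. That bound sets the mean of the activated arrays against the higher, for each resting array, of the dim probe's own signal and that array's lowest signal among probes well above background.

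Other hypoxia genes moved the opposite way. Ddit4, a stress-induced inhibitor of mTORC1 signalling, had Cy3 log2 intensities of 13.51, 13.64, 13.83 and 13.83 in activated cells, against 14.67, 14.75, 14.80 and 14.76 in resting cells at 2 h. No activated array reached the lowest resting one, and it fell 2.06-fold (log2 difference -1.04 ± 0.06 SE, adjusted p = 1.61e-09). Bnip3, a mitophagy receptor of the outer mitochondrial membrane, had 10.57, 10.78, 10.76 and 10.67 in activated cells and 11.21, 11.19, 11.33 and 11.08 in resting cells, and fell by 0.51 ± 0.06 (adjusted p = 4.71e-06). Egln1, the main oxygen-sensing hydroxylase, fell by 0.54 ± 0.11 (adjusted p = 0.000558). For Hif1a (-0.02 ± 0.08) and for Adm, a vasodilator peptide gene (0.03 ± 0.05), the differences were not called (adjusted p = 0.874 and 0.677). The only probe of Adm was dim, with mean log2 Cy3 intensities of 6.51 in activated and 6.48 in resting cells at 2 h.

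Among the preparatory enzymes, the muscle-type phosphofructokinase Pfkm fell most, with Cy3 log2 intensities of 9.01, 9.12, 9.10 and 9.30 in activated cells and 9.81, 10.04, 9.85 and 9.90 in resting cells at 2 h. The groups were separate, at 1.70-fold lower with antigen (adjusted p = 5.3e-08). The other phosphofructokinases Pfkl and Pfkp fell by 0.45 and 0.24 (0.01 for Pfkp as the mean over its probes, higher and without a call), the hexokinases Hk2 and Hk1 by 0.49 and 0.25, and the isomerase Gpi1 by 0.19 (adjusted p between 2.32e-06 and 0.00949). Gpi1's second probe showed 0.01, but it was dim, with mean log2 Cy3 intensities of 6.80 in activated and 6.79 in resting cells. Of the other kept probes of Hk1, which run from -0.40 to -0.13, 3 of 4 were called lower. Signals processed by the scanner software left Hk1 without a call (-0.15, adjusted p = 0.0575). The aldolase Aldoc had -0.24 ± 0.12 (adjusted p = 0.12), and with the replicate number as a block it passed the threshold (adjusted p = 0.00742). In the pay-off phase 1 of 7 enzymes was called, the enolase Eno2, whose Cy3 log2 intensities were 10.18, 10.27, 10.36 and 10.35 in activated cells and 9.54, 9.62, 9.78 and 9.75 in resting cells. All activated arrays were higher, by 1.53-fold (adjusted p = 8.07e-07).

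**Figure D1:**
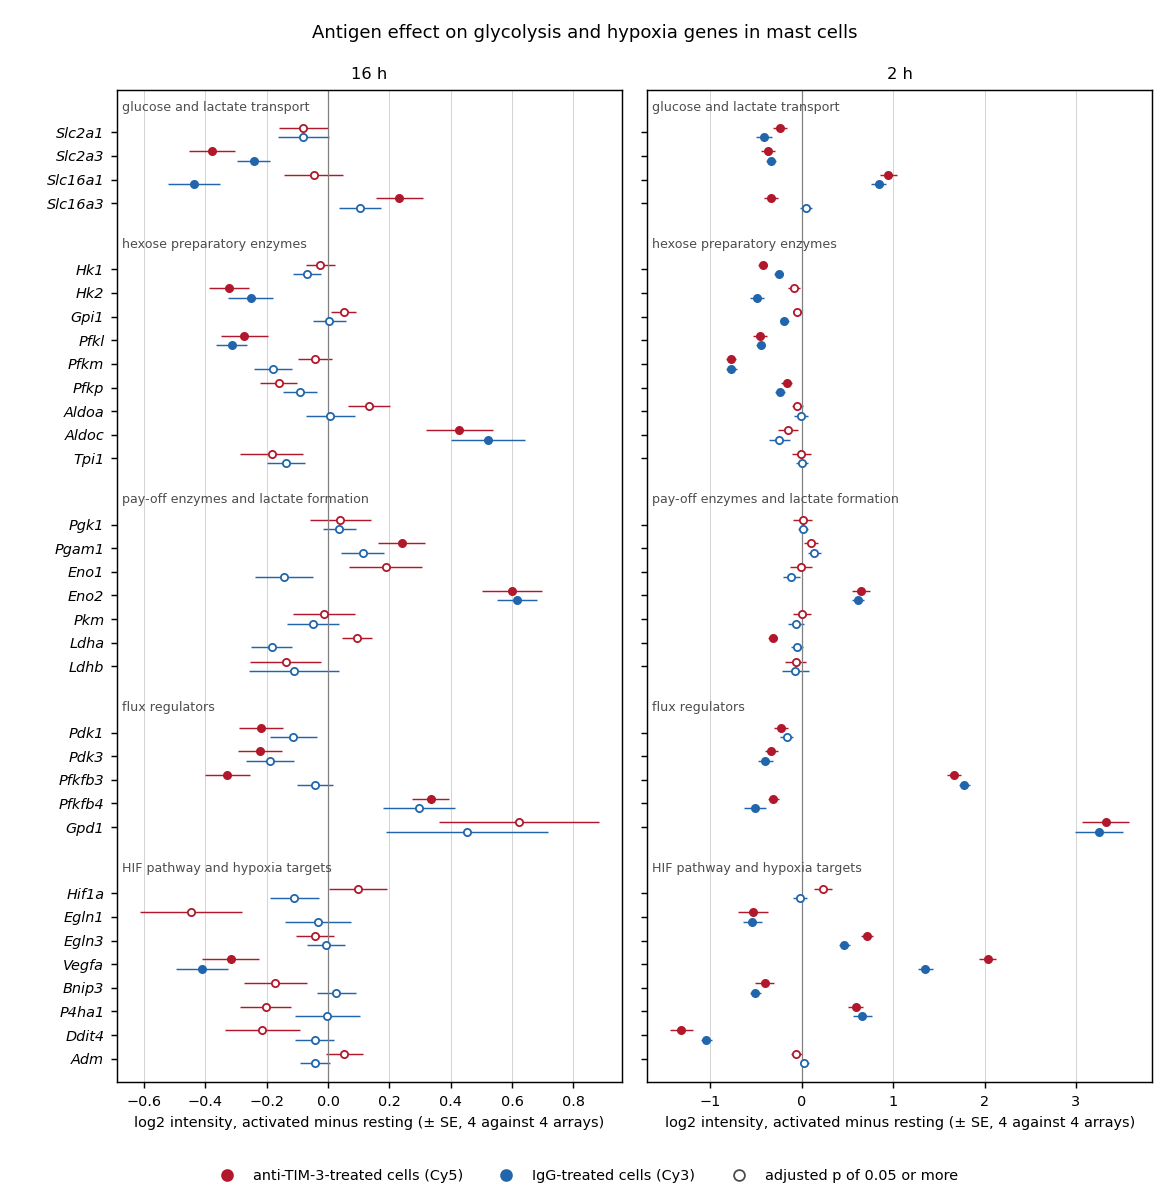
Difference between activated and resting cells (log2, ± SE of the fit, 4 arrays per group except 3 for Aldoa in resting cells at 16 h) for each gene, at 16 h and at 2 h, in anti-TIM-3-treated cells (Cy5) and in IgG-treated cells (Cy3); filled marks have an adjusted p under 0.05, and the x axes of the panels differ. At 2 h in IgG-treated cells Gpd1 (3.25), Pfkfb3 (1.78) and Vegfa (1.35) stand at the high end and Ddit4 (-1.04) and Pfkm (-0.77) at the low end, whereas at 16 h in IgG-treated cells no gene exceeds Eno2 at 0.62. Egln3 was well above background only in cells activated for 2 h, so its marks give no measured size.

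In anti-TIM-3-treated cells, read through Cy5 on the same arrays, antigen at 2 h left 21 of 33 genes called (63.6%, against 45.4% of all genes), 7 higher (all genes 17.1%) and 14 lower (28.3%). Signals processed by the scanner software split them 10 and 11. The 7 higher genes were the same ones as in IgG-treated cells. Side by side, Vegfa differed by 2.03 in anti-TIM-3-treated cells and 1.35 in IgG-treated cells, Gpd1 by 3.32 and 3.25, Pfkfb3 by 1.66 and 1.78, Slc16a1 by 0.95 and 0.84, P4ha1 by 0.59 and 0.66, and Ddit4 by -1.32 and -1.04. Egln3, kept through the activated 2 h arrays alone, was at least 1.64-fold higher with antigen in anti-TIM-3-treated cells. Ldha (-0.32) and Slc16a3 (-0.34) were called lower in anti-TIM-3-treated cells and stood at -0.05 and 0.05 in IgG-treated cells. With the processed signals Ldha stood at -0.10 in anti-TIM-3-treated cells, without a call. Hk2 stood at -0.08 ± 0.06 (adjusted p = 0.314) in anti-TIM-3-treated cells and at -0.49 in IgG-treated cells. The differences between these effects are the differences in the Cy5 to Cy3 ratio, which are tested below. Leaving out 1 array ended the calls of Egln1, Pdk1, Pfkp or Slc2a1 in anti-TIM-3-treated cells (adjusted p between 0.0509 and 0.113), and without resting 2 h replicates 2 and 3 there were 7 higher and 11 lower.

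After 16 h of antigen Eno2 and Aldoc were higher and Slc16a1, Vegfa, Pfkl, Hk2 and Slc2a3 lower. In IgG-treated cells 7 of 33 genes were called (21.2%, against 12.3% of all genes), 2 higher (all genes 5.24%) and 5 lower (7.03%). Eno2 was the clearest, with Cy3 log2 intensities of 8.81, 8.79, 8.92 and 8.98 in activated cells at 16 h and 8.25, 8.18, 8.28 and 8.34 in resting cells at 16 h. The groups were separate, and the difference of 0.62 ± 0.06 (adjusted p = 1.41e-05) was close to that at 2 h (0.61). Aldoc had 12.05, 12.24, 11.78 and 11.87 in activated cells and 11.45, 11.61, 11.48 and 11.31 in resting cells, and rose by 0.52 (adjusted p = 0.00837).

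Slc16a1 fell at 16 h by 0.44 ± 0.08 (adjusted p = 0.00234) with 10.16, 10.22, 10.25 and 10.28 in activated cells and 10.64, 10.51, 10.79 and 10.72 in resting cells. Vegfa fell by 0.41 ± 0.08 (adjusted p = 0.00398) with 8.62, 8.69, 8.63 and 8.60 in activated cells and 8.89, 9.33, 9.07 and 8.91 in resting cells. For both genes the activated arrays lay below all resting arrays at 16 h, opposite to the order at 2 h. Pfkl (-0.31), Hk2 (-0.25) and Slc2a3 (-0.24) were also lower, and the call of Hk2 was lost without 7 of the 8 arrays in turn (adjusted p between 0.0518 and 0.0988). Gpd1 had Cy3 log2 intensities of 6.77, 6.51, 6.56 and 8.20 in activated cells and 6.66, 6.49, 6.53 and 6.54 in resting cells at 16 h. Replicate 4 of the activated cells alone was high, in resting cells the probe was well above background on 2 of 4 arrays, and the difference was not called (0.45 ± 0.27, adjusted p = 0.319).

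The change of the antigen effect with time was tested as a difference of differences, in a comparison chosen after the data were seen. In IgG-treated cells, 14 of 33 genes had a different antigen effect at 16 h than at 2 h (42.4%, against 33.3% of all genes), 8 with a more positive effect at 16 h (all genes 20.6%) and 6 with a more negative one (12.8%). The 6 were Gpd1 (-2.80), Pfkfb3 (-1.82), Vegfa (-1.76), Slc16a1 (-1.28), P4ha1 (-0.67) and Egln3, with adjusted p between 3.02e-10 and 0.00227. For Egln3 no size is given, since it was not well above background in 3 of the 4 groups. It was kept through cells activated for 2 h alone, so its call is no independent support. The 8 were Ddit4 (1.00), Pfkfb4 (0.81), Aldoc (0.76), Pfkm (0.59), Bnip3 (0.54), Egln1 (0.51), Slc2a1 (0.33) and Hk1 (0.18). For Eno2 the difference was 0.00 ± 0.09 (adjusted p = 0.993). The calls of Hk1 and Slc2a1 were lost without 11 and 9 of the 16 arrays in turn (adjusted p between 0.051 and 0.0883). Without resting 2 h replicates 2 and 3 these were the calls that were lost, leaving 6 in each direction.

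**Figure D2:**
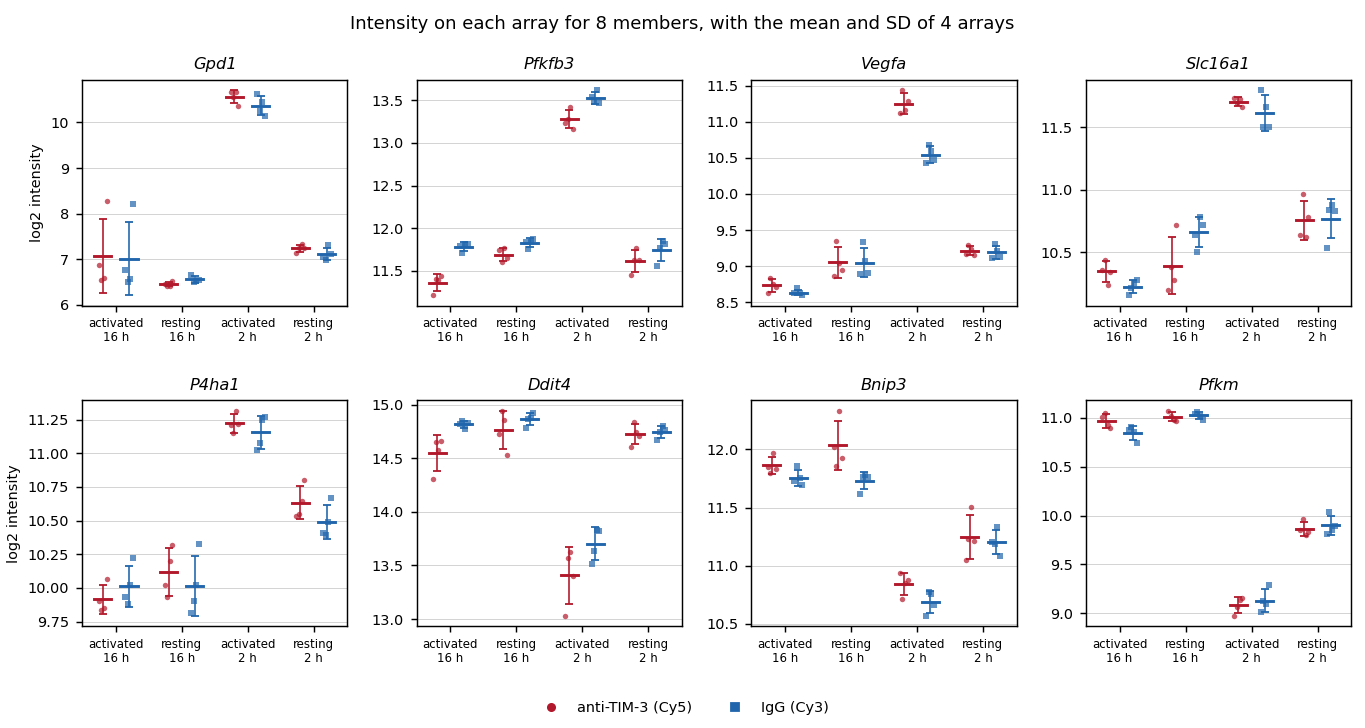
Log2 intensity on each array for 8 genes in the 4 groups, with anti-TIM-3-treated cells (Cy5, circles) left of IgG-treated cells (Cy3, squares), and mean with SD (n = 4). Gpd1, Pfkfb3, Vegfa, Slc16a1 and P4ha1 peak in cells activated for 2 h, Ddit4 and Bnip3 are lowest there, and Pfkm is higher in both 16 h groups than in both 2 h groups.

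In anti-TIM-3-treated cells at 16 h, 12 of 33 genes were called (36.4%, against 19.2% of all genes), 5 higher (all genes 9.37%) and 7 lower (9.84%). Eno2 (0.60), Aldoc (0.43), Pfkfb4 (0.33), Pgam1 (0.24) and Slc16a3 (0.23) were higher. Slc2a3 (-0.38), Pfkfb3 (-0.33), Hk2 (-0.32), Vegfa (-0.32), Pfkl (-0.27), Pdk3 (-0.22) and Pdk1 (-0.22) were lower. Pfkfb3 stood at -0.04 in IgG-treated cells in that contrast. The calls of Pdk1, Pdk3, Pfkl, Pgam1, Slc16a3 and Vegfa did not survive the removal of every single array (adjusted p up to 0.144), 7 genes were called without replicate 2 of the activated or replicate 3 of the resting cells, and the mean over its probes left Pfkfb3 without a call (-0.13). With the replicate number as a block Egln1 and P4ha1 also passed the threshold (adjusted p = 0.0147 and 0.0213).

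Between 2 h and 16 h, with no antigen, the 2 phases of glycolysis parted. In resting IgG-treated cells 20 of 33 genes were called (60.6%, against 46.9% of all genes), 11 higher (all genes 24%) and 9 lower (22.9%) at 16 h. Of the 9 preparatory enzymes 6 were higher (Aldoc, Pfkm, Pfkl, Hk2, Pfkp and Hk1) and 2 lower (Tpi1 and Gpi1), with a median of 0.19. Of the 7 pay-off enzymes none was higher and 5 were lower (Eno2, Eno1, Pkm, Pgk1 and Pgam1), with a median of -0.64, beside -0.01 over all genes. In activated IgG-treated cells 26 of 33 genes were called (78.8%, against 60.1% of all genes), 13 higher (all genes 33.8%) and 13 lower (26.3%). There the same 6 preparatory enzymes were higher and 1 (Tpi1) lower, and the same 5 pay-off enzymes were lower, with medians of 0.34 and -0.61. Within the slides that held both times, every called gene had the direction of the pooled value, over 3 slides for resting and 1 for activated cells. With signals processed by the scanner software 9 genes were higher and 11 lower in resting cells (47.5% of all genes called). In activated cells 12 were then higher and 16 lower (60.1% of all genes called).

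Pfkm had Cy3 log2 intensities of 11.04, 11.06, 11.02 and 10.97 in resting cells at 16 h, against 9.81, 10.04, 9.85 and 9.90 in resting cells at 2 h. All 16 h arrays were higher, by 2.18-fold (adjusted p = 5.65e-10), and in activated cells the rise was 3.28-fold (adjusted p = 1.12e-12). Aldoc, an aldolase isoform known from brain, had 11.45, 11.61, 11.48 and 11.31 in resting cells at 16 h, against 10.42, 10.38, 10.18 and 9.95 at 2 h. It rose 2.34-fold without overlap (adjusted p = 3.35e-07) and 3.98-fold in activated cells (adjusted p = 3.75e-10). The rise was larger on its dimmer probe, whose mean log2 Cy3 intensity went from 7.81 at 2 h to 9.99 at 16 h in resting cells. In activated cells that probe went from 7.56 to 10.61. In resting cells Pfkl rose by 0.58, Hk2 by 0.39, Pfkp by 0.19 and Hk1 by 0.13. In activated cells the rises were 0.71 for Pfkl, 0.63 for Hk2, 0.34 for Pfkp and 0.32 for Hk1. The call of Hk1 in resting cells was lost without 5 of the 8 arrays in turn (adjusted p up to 0.0901), and the mean over its probes gave 0.09 for Pfkp in activated cells, without a call.

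Eno2, an enolase isoform known from neurons, had Cy3 log2 intensities of 8.25, 8.18, 8.28 and 8.34 in resting cells at 16 h, against 9.54, 9.62, 9.78 and 9.75 at 2 h. All 16 h arrays were lower, by 2.66-fold in resting cells (adjusted p = 4.98e-11) and 2.66-fold in activated cells (adjusted p = 1.2e-11). Eno1, the general enolase, had 10.30, 10.08, 9.84 and 9.96 in resting cells at 16 h, against 10.83, 10.95, 10.91 and 10.98 at 2 h. It fell by 0.87 ± 0.09 in resting cells (adjusted p = 1.22e-06) and by 0.90 ± 0.09 in activated cells (adjusted p = 3.7e-07). The pyruvate kinase Pkm fell by 0.71 in resting cells and 0.69 in activated cells, and its second probe by 0.70 and 0.73. Phosphoglycerate kinase Pgk1 fell by 0.64 and 0.61, phosphoglycerate mutase Pgam1 by 0.46 and 0.49, and triose phosphate isomerase Tpi1, the last step before the pay-off phase, by 0.39 and 0.53, in the same order of cells. The lactate dehydrogenase subunits Ldha (0.01 and -0.12) and Ldhb (0.15 and 0.10) were not called.

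Of the 5 genes listed as flux regulators, Gpd1 among them, 3 rose with time in resting cells and none fell. In activated cells 3 rose and 2 fell. The pyruvate dehydrogenase kinases Pdk1 and Pdk3, which hold pyruvate back from mitochondrial oxidation, were higher at 16 h by 0.56 and 0.39 in resting cells and by 0.62 and 0.60 in activated cells. Pfkfb4 rose by 0.56 ± 0.12 in resting cells and 1.36 ± 0.12 in activated cells. Bnip3 rose by 0.53 ± 0.06 in resting cells (adjusted p = 2.79e-06) and 1.07 ± 0.06 in activated cells (adjusted p = 2.65e-10). The genes that antigen had raised at 2 h were lower at 16 h in activated cells, among them Gpd1 (10.2-fold), Vegfa (3.75-fold), Pfkfb3 (3.34-fold), Slc16a1 (2.62-fold) and P4ha1 (2.21-fold), while Ddit4 was 2.17-fold higher. Egln3, kept through the activated 2 h arrays alone, was at least 1.28-fold lower there. Apart from P4ha1 (-0.47), none of these 7 was called over time in resting cells, although with the replicate number as a block Vegfa passed there (-0.14, adjusted p = 0.0426). Hif1a rose by 0.25 in resting cells, a call lost without either of 2 arrays (adjusted p = 0.055 and 0.0551), and Slc2a1 by 0.27 in activated cells, a call lost with slides as a block (0.13, adjusted p = 0.224).

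**Figure D3:**
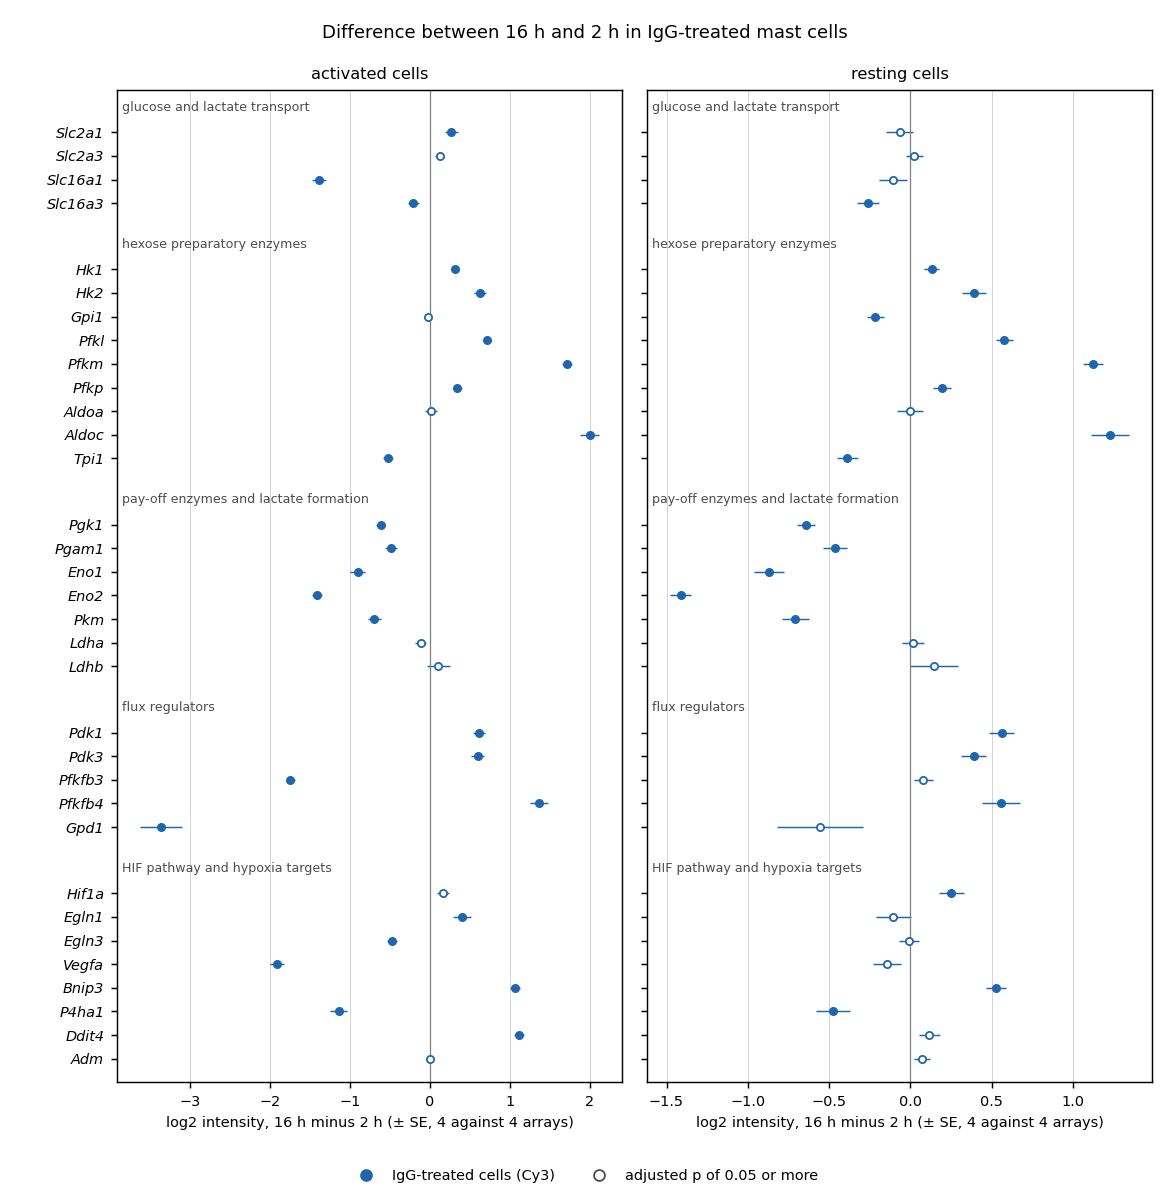
Difference between 16 h and 2 h in IgG-treated cells (Cy3, log2, ± SE, 4 arrays per group except 3 for Aldoa in resting cells at 16 h), for activated and for resting cells, grouped by role; filled marks have an adjusted p under 0.05 and the x axes differ. The 6 preparatory enzymes called higher lie right of 0 and 5 pay-off enzymes left of 0 in both panels, and Gpd1, Vegfa and Pfkfb3 lie far left in activated cells.

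The antibody was read from the log2 ratio of Cy5 (anti-TIM-3) over Cy3 (IgG). Within groups, 11 of 33 genes were called in cells activated for 16 h (33.3%, against 30.1% of all genes), 16 in resting cells at 16 h (48.5%, against 21.6%), 15 in cells activated for 2 h (45.5%, against 33.3%) and 9 in resting cells at 2 h (27.3%, against 14%). In cells activated for 16 h 9 were higher (all genes 16.9%) and 2 lower (13.2%), in resting cells at 16 h 10 were higher (11.7%) and 6 lower (9.95%), in cells activated for 2 h 9 were higher (17.1%) and 6 lower (16.3%), and in resting cells at 2 h 5 were higher (7.07%) and 4 lower (6.92%). With each array centred on its median in place of loess the higher and lower calls in the same order of groups numbered 22 and 6, 21 and 5, 18 and 4, and 16 and 3, where 76, 69.6, 66.1 and 58.4% of all genes were called. Signals processed by the scanner software gave 5 and 2 in cells activated for 16 h and 6 and 8 in cells activated for 2 h. Calls kept whichever array was left out numbered 9 of 11, 6 of 16, 11 of 15 and 5 of 9. The lost calls in resting cells at 16 h were those of Bnip3, Egln1, Hif1a, Hk1, Pdk3, Pfkfb3, Pfkl, Slc16a1, Slc16a3 and Slc2a3 (adjusted p between 0.0617 and 0.278), and 7 genes were called there without replicate 1 and 8 without replicate 3. In resting cells at 2 h 5 genes were called without replicate 1 and 3 without replicates 2 and 3.

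Vegfa had the clearest dependence of the antibody's ratio on antigen. Its log2 ratios were 0.68, 0.75, 0.56 and 0.81 in cells activated for 2 h, against 0.05, -0.01, 0.02 and 0.03 in resting cells at 2 h. Every activated array was above every resting one, the ratio in activated cells corresponded to 1.63-fold, and the groups differed by 0.68 ± 0.05 SE (adjusted p = 1.51e-07). Within each of the 2 slides that held both groups the difference was 0.67. At 16 h the ratios in activated cells were 0.00, 0.14, 0.13 and 0.12, so the ratio in activated cells was lower at 16 h than at 2 h by 0.60 (adjusted p = 3.66e-07). The other 2 probes of Vegfa gave 0.68 and 0.78 in cells activated for 2 h, and 1 of them was also called higher in the other 3 groups (0.21 to 0.30).

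At 2 h, 6 of 33 genes had a ratio that differed between activated and resting cells (18.2%, against 5.58% of all genes), 3 more positive (all genes 3.59%) and 3 more negative (1.99%) in activated cells. With median centring these were 4 and 1 (6.15% of all genes called), and with the processed signals 1 and 1. Slc16a3 had log2 ratios of -0.49, -0.37, -0.41 and -0.38 in cells activated for 2 h, against 0.02, 0.03, -0.10 and -0.05 in resting cells at 2 h. The groups were apart by -0.39 ± 0.06 (adjusted p = 0.00109). Hk2, the inducible hexokinase, had 0.36, 0.76, 0.58 and 0.73 in cells activated for 2 h, against 0.28, 0.27, -0.02 and 0.27 in resting cells at 2 h. The groups were apart by 0.40 ± 0.09 (adjusted p = 0.0155), and the call was lost without replicate 2 or 4 of the activated cells (adjusted p = 0.0642 and 0.0659). Ldha differed by -0.26 (adjusted p = 0.014) and Hk1 by -0.17 (adjusted p = 0.028), where the other 4 probes of Hk1 stood between -0.14 and 0.00, none of them called. Egln3 was also called more positive, but its probe was not well above background in either channel in resting cells at 2 h, so no size is given. It was kept through cells activated for 2 h alone, so its call is no independent support. The call of Egln3 was lost without either of 2 arrays and that of Hk1 without any of 6 (adjusted p up to 0.0891), and that of Ldha with slides as a block (adjusted p = 0.0517). Without resting 2 h replicates 2 and 3, Vegfa and Slc16a3 were the 2 genes called, and without replicate 2 of the activated cells 3 were called.

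At 16 h, 4 of 33 genes differed in the same way (12.1%, against 8.58% of all genes), 2 more positive (all genes 4.71%) and 2 more negative (3.87%), or 3 and 1 with median centring (10.2% of all genes called). Pfkfb3 had log2 ratios of -0.58, -0.31, -0.43 and -0.37 in cells activated for 16 h, against -0.10, -0.16, -0.07 and -0.23 in resting cells at 16 h. The groups were separate, by -0.29 ± 0.06 (adjusted p = 0.00486), and the mean over the gene's probes gave -0.11, without a call. The ratio of Pfkfb3 itself was -0.42 in cells activated for 16 h, and its negative sign in the other 3 groups (-0.14, -0.25 and -0.13) turned positive with median centring (0.09, 0.14 and 0.08). Ldha differed by 0.28 (adjusted p = 0.00823), Slc16a1 by 0.39 (adjusted p = 0.0346) and P4ha1 by -0.20 (adjusted p = 0.0438). The reported probe of P4ha1 had mean ratios of -0.10 in activated and 0.10 in resting cells at 16 h. Its dimmer probe had -0.17 and -0.13, so the probes disagreed in resting cells. The calls of Slc16a1 and P4ha1 were lost without 5 and 6 of the 8 arrays in turn (adjusted p up to 0.152), which left 2 genes called without replicate 1, 2 or 4 of the activated or 1 or 3 of the resting cells. As a mean over its disagreeing probes Ldha gave 0.03, without a call.

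In activated cells, 11 of 33 genes had a ratio that differed between 16 h and 2 h (33.3%, against 17.2% of all genes), 5 more positive (all genes 9.14%) and 6 more negative (8.05%) at 16 h, or 5 and 8 with median centring (29.2% of all genes called) and 6 and 4 with the processed signals. Hk2 had log2 ratios of -0.04, -0.10, -0.09 and -0.09 in cells activated for 16 h, against the 0.36 to 0.76 at 2 h given above. The times were separate, by -0.69 ± 0.09 (adjusted p = 5.91e-05). The glucose transporter Slc2a1 had -0.09, 0.08, -0.05 and 0.13 in cells activated for 16 h, against 0.39, 0.69, 0.54 and 0.50 in cells activated for 2 h. Its times were apart by -0.51 ± 0.11 (adjusted p = 0.00276), and its ratio was also called higher in resting cells at 2 h (0.35). Slc16a3 (0.40) and Ldha (0.40) moved the other way, as did Hk1 (0.28), Pfkm (0.17) and, on its dim probe, Adm (0.13, or -0.01 with median centring). Aldoa (-0.28) and Pfkfb3 (-0.18) were more negative at 16 h, with Vegfa. Egln3, kept through cells activated for 2 h alone, was called more negative too. No size is given because it was not well above background in either channel at 16 h. The calls of Adm, Pfkfb3 and Pfkm were each lost without 1 or more arrays (adjusted p up to 0.157). In resting cells Aldoa alone differed between the times (1 of 33, 3.03%, against 0.287% of all genes), 0 more positive (all genes 0.0878%) and 1 more negative (0.199%), or 0 and 2 with median centring (2.94% of all genes called). Without resting 2 h replicate 3 the count was 7, where 11.5% of all genes were called, and without resting 16 h replicate 4 it was 3, where 3.71% were.

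**Figure D4:**
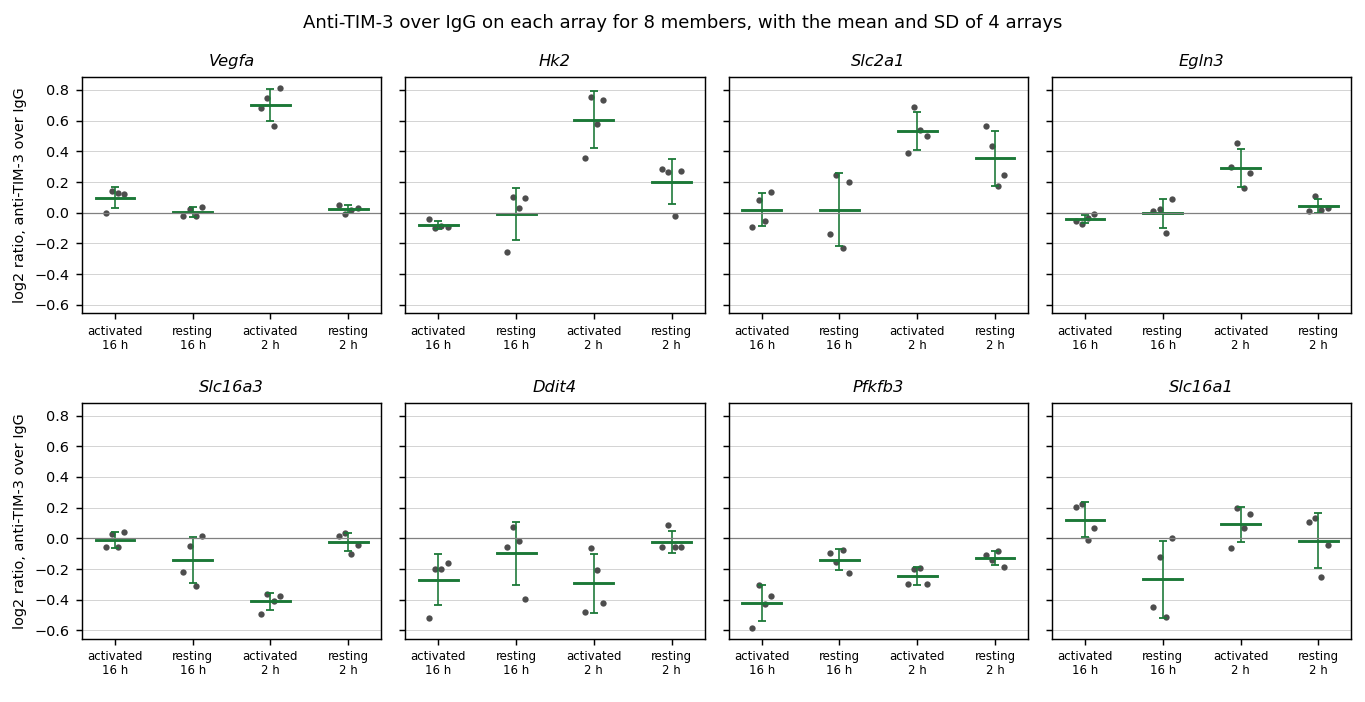
Log2 ratio of anti-TIM-3 (Cy5) over IgG (Cy3) on each array for 8 genes in the 4 groups, with mean and SD (n = 4). Vegfa is at 0.56 to 0.81 in cells activated for 2 h and at 0.14 or below in the other groups, and Slc16a3 is lowest in cells activated for 2 h.

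Ddit4 was called lower with the antibody in activated cells, with log2 ratios of -0.52, -0.20, -0.20 and -0.16 at 16 h and -0.48, -0.07, -0.20 and -0.42 at 2 h. The means were -0.27 (adjusted p = 0.0119) and -0.29 (adjusted p = 0.00638), and with median centring they were 0.25 and 0.11, of the opposite sign. Without replicate 1 the call at 16 h was lost (-0.19, adjusted p = 0.116). The ratios of activated and resting cells did not differ by a call at either time (-0.17 and -0.27, adjusted p = 0.358 and 0.172). Egln1 had log2 ratios of 0.78, 0.13, 0.78 and 0.04 in resting cells at 16 h, where replicates 1 and 3 were high and the others near 0, and without either of them its call was lost (adjusted p = 0.127 and 0.125).

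Other glycolytic enzymes had ratios that did not depend on antigen by any call. Pgk1 was higher with the antibody at 16 h, by 0.36 in activated cells (ratios 0.38, 0.44, 0.31 and 0.32) and by 0.36 in resting cells (0.56, 0.19, 0.57 and 0.12), and stood at 0.06 in both groups at 2 h, without a call. Pgam1 was higher by 0.53 in cells activated for 16 h and by 0.41 in resting cells at 16 h. The changes between the times were not called for either gene (adjusted p between 0.0535 and 0.442). In activated cells both were called without replicate 1 of the cells activated for 2 h (adjusted p = 0.0452 for Pgk1 and 0.0450 for Pgam1). In resting cells Pgk1 was called without resting 2 h replicate 3 (adjusted p = 0.0295). Gpi1 was called higher in all 4 groups on its brighter probe (0.20 to 0.34), but with the processed signals it stood at -0.01 in resting cells at 16 h and -0.06 in resting cells at 2 h. Its second probe ran from -0.04 to 0.04, but its mean log2 intensities were 6.70 to 6.83, against 15.42 to 15.83 on the brighter probe. The second probe was well above background on 16 of 16 arrays in Cy5 and 15 of 16 in Cy3. A probe not well above background stood at 6.13 (Egln3, Cy3, cells activated for 16 h). The second Gpi1 probe thus did not show the higher ratio of the brighter one. Whether its low level hides such a ratio was not tested.

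For Aldoa, Ldha and Eno1, whose ratios were called in most groups, every probe was examined. Aldoa, the aldolase that splits fructose 1,6-bisphosphate, has 2 probes, called brighter and dimmer here by their mean over both channels and all arrays. On the brighter one the ratios were 0.73, 0.80, 0.96 and 0.72 in cells activated for 16 h, 0.57, 0.78 and 0.68 in resting cells at 16 h (the spot on replicate 4 was an outlier and was left out), 1.00 to 1.14 in cells activated for 2 h and 1.10 to 1.15 in resting cells at 2 h. All 15 values were positive, and the 16 h values lay below all 2 h values. On the dimmer probe the ratios were 0.26, 0.27, 0.58 and 0.30 in cells activated for 16 h, 0.20, 0.39, 0.33 and 0.34 in resting cells at 16 h, 0.56 to 0.72 in cells activated for 2 h and 0.49 to 0.75 in resting cells at 2 h. Both probes were called higher in all 4 groups and lower at 16 h than at 2 h in activated cells (-0.28 and -0.29), with means of 1.12 on the brighter and 0.62 on the dimmer probe in resting cells at 2 h. In activated cells the call was lost with slides as a block (-0.20, adjusted p = 0.0577). In resting cells the difference between the times was called on the brighter probe (-0.45, adjusted p = 0.00454, or -0.40 and 0.0625 with the processed signals) and not on the dimmer one (-0.30, adjusted p over probes = 0.0811).

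In Cy3 neither Aldoa probe was called over time in activated cells, and the dimmer probe was called lower at 16 h in resting cells (-0.31, adjusted p over probes = 0.0055). On the brighter probe the IgG-treated cells stood at 16.17 ± 0.04 in cells activated for 16 h, 16.17 ± 0.19 in resting cells at 16 h (n = 3), 16.16 ± 0.09 in cells activated for 2 h and 16.17 ± 0.10 in resting cells at 2 h (SD, n = 4 otherwise). The anti-TIM-3-treated cells stood at 16.98 ± 0.08, 16.84 ± 0.09, 17.24 ± 0.05 and 17.29 ± 0.11 in the same order. On that probe the small change of Cy3 over time depends on the scaling, since in activated cells it fell by 0.42 with the processed signals and by 0.21 with quantile normalization of both channels.

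Ldha, the subunit of lactate dehydrogenase that favours lactate formation, also has 2 probes, and they disagreed. The brighter one gave 0.77, 0.92, 0.80 and 0.77 in cells activated for 16 h, 0.54, 0.65, 0.42 and 0.54 in resting cells at 16 h, 0.37, 0.41, 0.44 and 0.46 in cells activated for 2 h, and 0.60, 0.81, 0.58 and 0.74 in resting cells at 2 h. The activated arrays were all higher than the resting ones at 16 h and all lower at 2 h. The dimmer one gave 0.07, 0.13, -0.11 and 0.05 in cells activated for 16 h, 0.40, 0.10, 0.48 and 0.00 in resting cells at 16 h, -0.26, -0.28, -0.16 and -0.44 in cells activated for 2 h, and -0.01, -0.18, 0.31 and -0.19 in resting cells at 2 h. On that probe the ratio was called lower in cells activated for 2 h (-0.29) and higher in resting cells at 16 h (0.25), and no difference between groups was called. In cells activated for 2 h the 2 probes were thus called in opposite directions. They pointed the same way for the change from 2 h to 16 h in activated cells, by 0.40 (called) and 0.32 (adjusted p over probes = 0.0682). In Cy3 the dimmer probe was called lower with antigen at 2 h (-0.34), lower at 16 h in resting cells (-0.29) and higher at 16 h in activated cells (0.23), where the brighter one had no call.

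Eno1 has 1 probe. Its ratios were -0.06, -0.48, 0.28 and -0.40 in cells activated for 16 h, -0.80, -0.55, -0.25 and -0.38 in resting cells at 16 h, -0.12, -0.46, -0.52 and -0.33 in cells activated for 2 h, and -0.50, -0.69, -0.33 and -0.34 in resting cells at 2 h. The 12 values outside the cells activated for 16 h were all negative, and the means of -0.50, -0.36 and -0.46 were called (adjusted p between 0.0044 and 0.0162). Without resting 2 h replicates 2 and 3 the call in that group was lost (-0.42, adjusted p = 0.135). The call in cells activated for 2 h was lost without replicate 2 or 3 (adjusted p = 0.0756 and 0.0827). No difference between groups was called for Eno1 (adjusted p between 0.196 and 0.922).

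**Figure D5:**
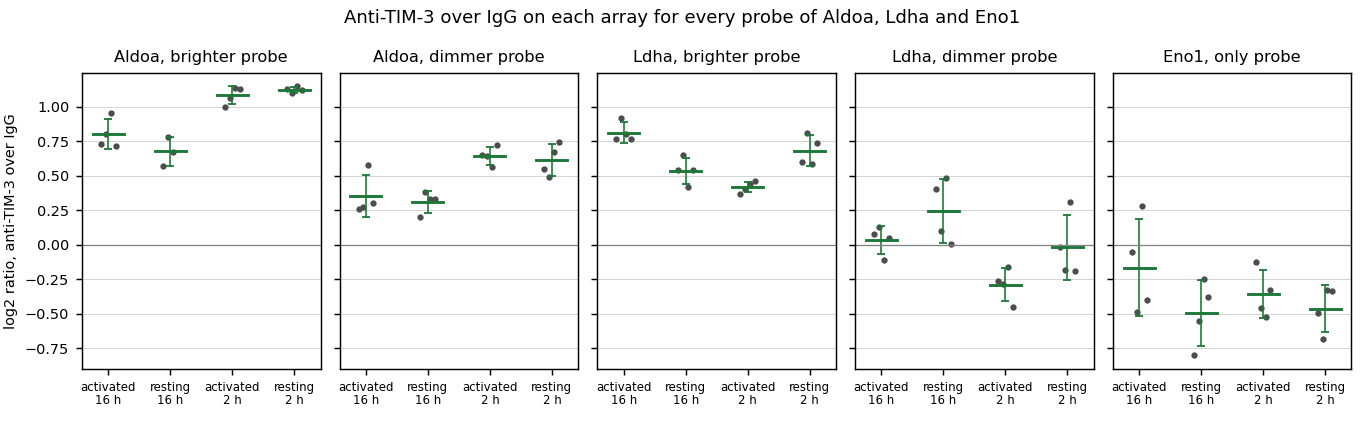
Log2 ratio of anti-TIM-3 over IgG on each array for every probe of Aldoa, Ldha and Eno1 in the 4 groups, with mean and SD (n = 4, and 3 for the brighter Aldoa probe in resting cells at 16 h). Both Aldoa probes lie above 0 on every array, the dimmer Ldha probe (by the mean over both channels) lies on both sides of 0 where the brighter one is at 0.37 to 0.92, and Eno1 lies mostly below 0.

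Further genes of the pathway, 66 by list and 59 tested, were read in the same fits. With antigen at 2 h in IgG-treated cells 13 were higher and 22 lower, where the shares over all genes were 15.3% and 27.6%. Among 22 other glycolysis and sugar enzymes 2 were higher and 10 lower, among 10 genes of pyruvate handling 2 were higher and 3 lower, and among 27 other genes of the hypoxia system 9 were higher and 9 lower. The heme oxygenase Hmox1 (1.26) was among those that rose, and the carbonic anhydrase Car12 (-0.65) and the pyruvate carboxylase Pcx (-0.55) fell most. With the antibody, the difference between activated and resting cells at 2 h was called for 6 higher (all genes 3.59%) and 2 lower (1.99%) of the 59, among them the stress-response gene Ndrg1 (0.91), which is known to respond to hypoxia. At 16 h it was called for 3 higher (all genes 4.71%) and 4 lower (3.87%), with the hexokinase-like gene Hkdc1 (1.08) and the stanniocalcin Stc2 (1.01) at the high end. From 2 h to 16 h in resting cells 17 were higher (all genes 24%) and 18 lower (22.9%), with the galactose mutarotase Galm (1.52) and Pcx (1.35) at one end and the fructose bisphosphatase Fbp1 (-1.87) and Hmox1 (-1.55) at the other.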

How the data were processed

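RNA of anti-TIM-3-treated cells (Cy5) and IgG-treated cells (Cy3) was measured on 16 two-colour Agilent mouse arrays. Per the file headers and the submitters' processing notes, the authors extracted mean, background and processed intensity values with Agilent Feature Extraction (version 9). The deposited log10 ratio of red over green is the scanner's own, and the value table repeats it. Its scale is log10, each column has a median of 0, and its direction is Cy5 over Cy3.

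Intensities were background-corrected (limma 3.58.1 in R 4.3.3, normexp, offset 50) and normalized by loess within arrays, and single channels by Aquantile. A probe was kept if well above background in either channel on 3 of 4 arrays of a group, and the brightest kept probe stood for its gene. Ratios, Cy3 and Cy5 were each tested in 1 limma fit over all 16 arrays, with Benjamini-Hochberg adjustment over all genes and a threshold of 0.05. Probe precision is limited by the 4 arrays per group. The limma fit was tested on simulated ratios and Cy3 intensities with known changes in cells activated for 2 h, and the other steps were not. Gene symbols were updated by accession or synonym through RefSeq tables. Named genes were the members, and of the other pathway genes up to 2 with the largest called change in each direction, 1 of which is not reported here.

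The members, lists and tests were chosen with earlier results of these data known. Same-numbered samples deviated together in every pair for the 4 Cy3 comparisons (r between 0.13 and 0.67) and for antigen at 16 h in Cy5, and not for the ratios, so the replicate block was an alternative. Other alternatives were the processed signals, median centring, offset 0, quantile normalization, 2 filters, the mean over probes, slides as a block, only the groups compared and each array left out.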

Additional observations from a re-analysis of the deposited data

Results flagged for a closer look

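In groups of 4 arrays, 1 value stood far from the other 3 in 6 of 131 sets of gene and group for each of the ratio, Cy5 and Cy3, and chance gives about 1 in 20. Among log2 ratios these were Ddit4 (-0.52) and Vegfa (7.67e-05) on replicate 1 of cells activated for 16 h, Pgam1 (0.41) and Pkm (0.13) on replicate 1 of cells activated for 2 h, and, in resting cells at 2 h, Ddit4 on replicate 2 (0.0865) and Hk2 on replicate 3 (-0.0190). Among Cy5 log2 intensities they were Hk1 on replicate 3 of cells activated for 16 h (15.19), Eno1 on replicate 1 of cells activated for 2 h (10.72), and, in resting cells at 2 h, Egln1 (9.97), Hif1a (10.65) and Pfkp (11.54) on replicate 3 and Pfkl on replicate 2 (8.78). Among Cy3 log2 intensities they were Adm on replicate 3 (6.41) and Gpd1 on replicate 4 (8.20) of cells activated for 16 h, Bnip3 (11.62) and Hk2 (12.85) on replicate 1 and Hk1 on replicate 3 (15.11) of resting cells at 16 h, and Slc16a1 on replicate 1 of resting cells at 2 h (10.54).

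The antibody's log2 ratio differed between activated and resting cells, by the limma test of the difference, at 2 h for Vegfa (0.68), Hk2 (0.40), Egln3 (0.25), Hk1 (-0.17), Ldha (-0.26) and Slc16a3 (-0.39), and at 16 h for Slc16a1 (0.39), Ldha (0.28), P4ha1 (-0.20) and Pfkfb3 (-0.29). It differed between 16 h and 2 h in activated cells for Slc16a3 (0.40), Ldha (0.40), Hk1 (0.28), Pfkm (0.17), Adm (0.13), Pfkfb3 (-0.18), Aldoa (-0.28), Egln3 (-0.33), Slc2a1 (-0.51), Vegfa (-0.60) and Hk2 (-0.69), and in resting cells for Aldoa (-0.45). The antigen effect in IgG-treated cells differed between 16 h and 2 h for Ddit4 (1.00), Pfkfb4 (0.81), Aldoc (0.76), Pfkm (0.59), Bnip3 (0.54), Egln1 (0.51), Slc2a1 (0.33), Hk1 (0.18), Egln3 (-0.47), P4ha1 (-0.67), Slc16a1 (-1.28), Vegfa (-1.76), Pfkfb3 (-1.82) and Gpd1 (-2.80). Egln3 was not well above background in either channel outside cells activated for 2 h, and it passed the filter through that group alone. Its 3 values are fitted ones that rest on signals at background and give no measured size.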

How the results depend on the processing

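Of 495 gene results, 439 kept their direction and side of the threshold with the processed signals, 475 with offset 0, 455 as a mean over probes, 474 with the replicate block and 466 with slides as a block, and 184 of 264 ratio results did so with median centring. The replicate block moved no count of called genes by over 1.5 times (21 genes with antigen at 2 h in IgG-treated cells), and it changed calls only where both are given above or for Hif1a over time in activated cells (adjusted p = 0.0494) among the paired comparisons. The causes were not tested.

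Called genes numbered 28 with median centring and 7 with the processed signals in cells activated for 16 h, 26 with median centring and 7 with only the groups compared in resting cells at 16 h, and 19, 3 and, without replicates 2 and 3 (chosen after seeing the data), 3 in resting cells at 2 h. For the difference between activated and resting cells, they numbered 2 at 16 h with the processed signals, slides as a block or only the groups compared, and 0 as a mean over probes (9 at an unadjusted p under 0.05 in limma). At 2 h they numbered 2 with the processed signals, 3 with only the groups compared and 2 without resting replicates 2 and 3. Between times in activated cells 7 were called with slides as a block. In resting cells 0 were called with the processed signals (12 at an unadjusted p under 0.05 in limma) or only the groups compared (9), and 2 with median centring. Antigen at 16 h in anti-TIM-3-treated cells gave 7 with only the groups compared.

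Leaving out 1 array gave 10 to 11 and 7 to 15 called genes for the ratio in activated and resting cells at 16 h, 13 to 14 and 5 to 10 at 2 h, 2 to 5 and 3 to 6 for activated against resting at 16 h and 2 h, 9 to 13 and 1 to 7 for 16 h against 2 h in activated and resting cells, and 7 to 12 for antigen at 16 h in anti-TIM-3-treated cells.

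With median centring these ratios changed sign. In cells activated for 16 h they became -0.27 for Adm, 0.25 for Ddit4, -0.21 for Gpd1, 0.18 for Hif1a, 0.24 for Hk2, 0.15 for Pfkp and 0.27 for Slc16a3. In resting cells at 16 h they became -0.27 for Adm, 0.32 for Ddit4, 0.27 for Hk2, 0.0875 for Pfkfb3, 0.18 for Pfkm, 0.19 for Pfkp and 0.0830 for Slc16a3. In cells activated for 2 h they became 0.11 for Ddit4, 0.40 for Hk1, 0.14 for Pfkfb3, 0.34 for Pkm and 0.26 for Tpi1. In resting cells at 2 h they became -0.13 for Adm, 0.43 for Ddit4, -0.25 for Egln3 (not well above background there), 0.0784 for Pfkfb3, 0.0120 for Pfkp, 0.23 for Pkm, 0.21 for Slc16a3 and 0.21 for Tpi1, and the change between times of Adm in activated cells became -0.00814. The processed signals turned the ratios of Gpi1 (-0.0128 in resting cells at 16 h and -0.0604 at 2 h) and Hk1 (-0.0365 in resting cells at 16 h) and the change of Aldoa with time in activated IgG-treated cells (-0.42, or -0.21 with quantile normalization). As a mean over probes the ratio of Hk1 in cells activated for 16 h became -0.00686, that of Pfkp in resting cells at 2 h 0.00559, the antigen effect of Pfkp at 2 h 0.0111, the change of Ldha with time in resting cells -0.14 and the change of its antigen effect 0.19.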
